A study of Mus musculus with 7 samples.

Results

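Microglia from 7 single-cell RNA libraries of NSCG tumours, a mouse glioma model, are described here: 2672 cells of 51795 that passed the filters on depth. A cell counted as microglia when it held at least 3 UMIs (counted transcript molecules) summed over P2ry12, Tmem119 and Sall1, at least 3 summed over the complement genes C1qa, C1qb and C1qc, and none of the T-cell genes Cd3d, Cd3e and Cd3g. These genes chose the cells, so their levels are given as a description and are not tested. The filters kept barcodes with 1000 UMIs and 500 genes or more, of which mitochondrial genes gave no more than 15% of UMIs.

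Microglia are the resident macrophages of the brain, and in a glioma they share the tissue with macrophages that derive from blood monocytes. In the healthy brain they sense nucleotides through P2ry12, answer fractalkine through Cx3cr1, and keep their identity through the transcription factor Sall1. Type I interferon turns on antiviral genes such as Isg15 in them, and interferon gamma turns on guanylate-binding proteins, the T-cell attractant Cxcl9 and, through the transactivator Ciita, MHC class II, which shows peptides to CD4 T cells.

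The tumours came from the NSCG-mCherry line, which carries EGFRvIII and lacks Arf/Ink4a, implanted into wild-type C57BL/6 mice of 7 to 10 weeks, and were taken whole at about day 14 with at least 2 mice pooled in each library. The IgG libraries (2, called IgG 1 and IgG 2) received IgG2b isotype control at 10 mg/kg. The BP libraries (2, BP 1 and BP 2) received the anti-VEGF antibody B20 at 5 mg/kg with anti-PD-L1 at 10 mg/kg; both regimens were given every 3 days from day 6 or 7, with about 3 rounds before collection. The BPI library (1) received B20 and anti-PD-L1 at these doses plus IPI-145, which blocks the delta and gamma forms of PI3K, by mouth each day at 10 mg/kg. The CD40 library (1) received an agonist antibody to CD40 at 100 µg a dose, 2 doses 5 days apart, and the labels do not say whether a dendritic cell vaccine was added. The UT library (1) was untreated. All mice carried 1 tumour line, each library is a pool, and nothing in the labels says that the pools of a group were separate experiments, so p-values measure only the spread between these libraries.

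IgG 1, BP 2 and BPI carry consecutive library names, as do IgG 2 and CD40, while BP 1 and UT stand alone in that series of names. The labels name no batch, so these 2 sets are used below only to give values within a set. The libraries held between 68997476 and 186793886 UMIs over all barcodes, and RNA free in the suspension made up an estimated 4.16% to 20.9% of a cell's UMIs, highest in UT. Sex differed too, which the labels do not give. Per 1000000 microglial UMIs (CPM), Xist stood at 0 in UT and at 591 to 842 in the other 6 libraries. The Y-linked gene Ddx3y stood at 42.6 CPM in UT, 21.2 in BP 1 and 3.76 to 8.35 in the other 5. BPI and BP 2 share a set with IgG 1, and CD40 with IgG 2, while UT and BP 1 share none with an IgG library. The raw matrix of UT listed 713553 barcodes against 1487060 to 2310016 in the other 6, and 0.16% of its filtered barcodes occurred in another library against 1.07% to 1.37%, although the labels give 1 barcoding chemistry for all 7. Sex, library set and any difference in barcoding cannot be told apart from the absence of treatment in UT.

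Microglia made up 2.27% of filtered cells in IgG 1, 9.62% in IgG 2, 3.02% in BP 1, 2.80% in BP 2, 2.37% in BPI, 11.7% in CD40 and 2.35% in UT. The numbers of cells behind these shares were 142, 770, 318, 168, 167, 975 and 132. IgG 2 and CD40, which share a library set, stood far above the other 5, whose exact 95% binomial intervals lie between 1.91% and 3.36%. The mean was 2.91% ± 0.157 (SD, n = 2) in BP and 5.94% ± 5.20 (n = 2) in IgG, and the groups overlapped (two-sided exact permutation test, p = 1.0; the smallest p that 2 against 2 allows is 0.333). Without IgG 2 the difference changed sign, from -3.04 to 0.637 percentage points. These intervals cover counting error only. A deeper cell also passes the rule more easily. With each cell thinned by random draw to 2000 UMIs, and shallower cells left out, the shares were 1.64% in IgG 1 and 7.10% in IgG 2. They were then 0.689% in BP 1, 2.25% in BP 2, 1.41% in BPI, 7.74% in CD40 and 0.81% in UT. At that depth BP 1 lay well below BP 2, so the small SD of BP holds only at full depth.

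**Figure D1:**
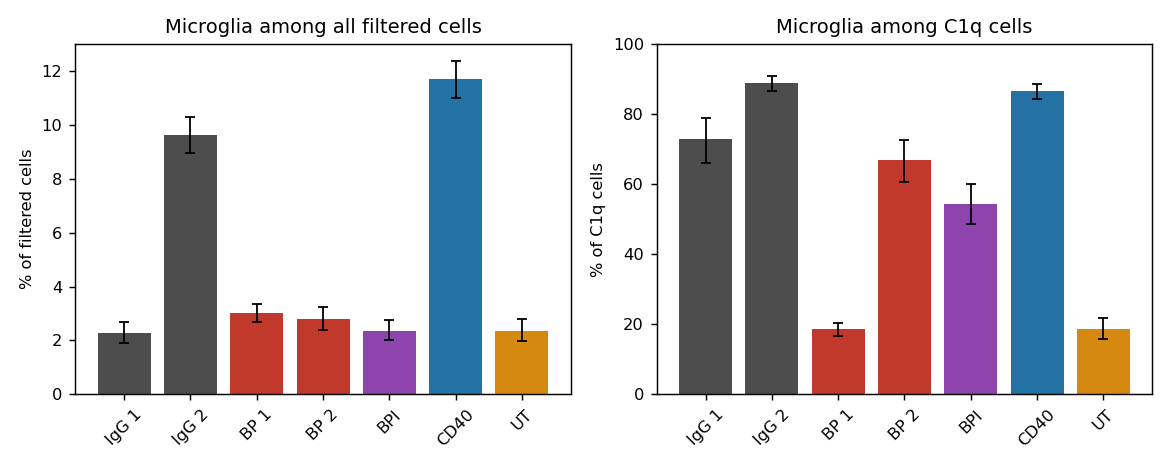
Share of microglia among filtered cells (left) and among C1q-positive cells without Cd3 UMIs (right), in percent, for each library, with exact 95% binomial intervals. Cells are at full depth, which differs between libraries. CD40 (11.7%) and IgG 2 (9.62%) stand highest in the left panel, and BP 1 (18.5%) and UT (18.6%) lowest in the right one.

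Among all C1q-positive cells the order was different, because 2 libraries held many macrophages without the 3 microglia genes. Microglia were 72.8% of C1q-positive cells in IgG 1, 88.9% in IgG 2, 66.9% in BP 2, 54.2% in BPI and 86.5% in CD40, but 18.5% in BP 1 and 18.6% in UT. BP 1 held 962 C1q macrophages without a UMI of the 3 genes and UT held 383, against 32 to 75 in the other 5 libraries. The BP mean was 42.7% ± 34.3 (SD, n = 2) against 80.9% ± 11.4 (n = 2) in IgG, with no overlap (two-sided exact permutation test, p = 0.333, the smallest possible).

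The rule's own genes were present by construction, and their levels only describe how the libraries differ. Tmem119 was seen in 86.2% to 97.3% of members in every library. P2ry12, the purinergic receptor, was seen in 91.6% to 98.8% of members in IgG, BP 2, BPI and CD40, in 84.6% in BP 1 and in 68.9% in UT. Sall1 was seen in 75.2% of members in IgG 2, 70.6% in CD40, 67.0% in BP 1, 44.6% in BP 2, 43.7% in IgG 1, 35.9% in BPI and 31.1% in UT, although the median depth of a member was 17209.5 UMIs in UT and 7487 in IgG 2. The summed level of the 3 genes was 13.5 to 17.1 UMIs per 10000 in IgG, BP 2, BPI and CD40, and 5.03 in BP 1 and 6.25 in UT. Cx3cr1, a microglial receptor that the rule did not use, was seen in 94.0% to 99.9% of members in IgG, BP 2, BPI and CD40, in 80.8% in BP 1 and in 74.2% in UT. In C1q macrophages without the 3 genes it was seen in 9.67% to 59.4% of cells.

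The share of weakly marked cells differed between libraries. Members with only 3 or 4 UMIs of the 3 genes made up 30.2% of the class in BP 1, 31.1% in UT, 28.1% in BPI, 16.7% in BP 2 and 14.8% in IgG 1, against 4.29% in IgG 2 and 7.18% in CD40. Among cells deep enough to thin, the 271 just outside the threshold, with 2 such UMIs, held on average 9.76 homeostatic UMIs per 2000. Just inside it the 184 cells with 3 held 11.8 and the 131 with 4 held 18.4. These means pool the libraries, whose mix changes between the steps. Counted at any depth, BP 1 gave 121 and UT 59 of the 296 cells with 2 such UMIs. Of the 194 cells with 3, BP 1 gave 66 and UT 29. In the pooled means the class has no sharp edge at this threshold, and the part of the library mix was not tested.

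Markers of monocytes and blood-derived macrophages were higher in BP 1 and UT than in the other 5 libraries. The 8 markers of blood-derived macrophages and monocytes (Ly6c2, Ccr2, Plac8, Chil3, Ms4a7, Vim, Tgfbi and Arg1) summed to 3.43 to 9.40 UMIs per 10000 in IgG, BP 2, BPI and CD40, to 23.2 in BP 1 and to 37.5 in UT. Ccr2, which lets monocytes enter tissue, stayed between 0.0992 and 11.4 CPM in every library. Plac8, another monocyte gene, stood at 623 CPM in UT, 306 in BPI, 159 in BP 1, 41.9 in BP 2, 22.6 in IgG 1, 2.48 in IgG 2 and 1.56 in CD40. T and NK markers were at most 0.187 per 10000 outside BP 1 (1.34), and the 6 dendritic cell markers at most 0.288. The part of these cells or transcripts in the differences below was not tested.

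States within the class were read from gene lists in cells thinned to 2000 UMIs, so that deep and shallow cells could be compared. The homeostatic list holds 20 genes of resting microglia, the interferon list 21 measured antiviral genes, the antigen-presenting list 7 MHC class II genes and the cycling list 23 genes of DNA replication and mitosis. A cell was in a state from 10, 5, 5 or 3 UMIs of the list upward, and 1 cell could be in several states. These states are ranges of a score and not cell types. Between 129 and 969 members per library were deep enough. Left out were 9 members of IgG 1, 10 of IgG 2, 2 of BP 1, 13 of BP 2, 29 of BPI, 6 of CD40 and 3 of UT.

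The homeostatic state was the commonest in 5 of the 7 libraries. It held 88.0% of members in IgG 1, 95.8% in IgG 2, 89.0% in BP 2, 92.0% in BPI and 94.1% in CD40, but 66.5% in BP 1 and 48.8% in UT. In T cells (at least 3 Cd3 UMIs and no C1q) the same score passed in 0% to 2.04% of cells. The BP mean of 77.7% ± 16.0 (SD, n = 2) and the IgG mean of 91.9% ± 5.53 (n = 2) overlapped (two-sided exact permutation test, p = 0.667). With the microglia rule applied to thinned counts, which keeps 39 to 611 more strongly marked cells a library, the homeostatic share was 95.6% in BP 1, 97.4% in UT and 97.7% to 99.5% elsewhere. The difference between BP and IgG was then -1.21 percentage points against -14.1 over all members, and -6.24 with at least 5 rule-gene UMIs. With at least 10 rule-gene UMIs the shares were 90.1% in BP 1 and 98.0% in BP 2, close to 91.2% in IgG 1 and 97.1% in IgG 2. Each of these stricter rules selects on genes of resting microglia and so favours homeostatic cells. The smaller differences are partly fixed by that choice, and they cannot show whether BP and IgG differ in this state.

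The antigen-presenting state separated the libraries most. It held 0 of 133 members in IgG 1 (which allows up to 2.26% by 3 counts), 1.58% in IgG 2, 8.39% in BP 2, 5.57% in CD40, 34.8% in BPI, 69.0% in UT and 95.3% in BP 1. Among T cells it held 0% to 1.73%, but only 30 T cells in IgG 1 and 49 in IgG 2 were counted. Their intervals reached 11.6% and 7.25%. T cells were chosen without C1q UMIs, which leaves out those carrying such transcripts, so this background may be too low. Over all members, the shares of IgG 1 and IgG 2 lay within the T-cell range and those of the other 5 above it. In CD40 the interval of microglia (4.21% to 7.21%) overlapped that of T cells (up to 4.28%). Both BP libraries lay above both IgG libraries, with means of 51.8% ± 61.4 and 0.789% ± 1.12 (SD, n = 2 each; two-sided exact permutation test, p = 0.333, the smallest possible). Leaving out BP 1 reduced the difference from 51.0 to 7.60 percentage points, and leaving out BP 2 raised it to 94.5. With the rule on thinned counts the share was 4.27% in BP 2, 2.95% in CD40, 24.1% in BPI, 48.7% in UT and 100.0% in BP 1. Among members with at least 10 rule-gene UMIs, BP 2 no longer lay above IgG. There the share was 0% of 50 cells in BP 2 (interval up to 7.11%) and 97.2% of 142 in BP 1. It was 0% of 68 in IgG 1 and 1.05% of 664 in IgG 2.

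The interferon state held 33.1% of members in IgG 1, 5.26% in IgG 2, 75.9% in BP 1, 27.1% in BP 2, 60.1% in BPI, 6.19% in CD40 and 97.7% in UT. BP 2 lay below IgG 1 of its own library set, and CD40 lay close to IgG 2 of its set. The BP mean was 51.5% ± 34.5 (SD, n = 2) and the IgG mean 19.2% ± 19.7 (n = 2), with overlap (two-sided exact permutation test, p = 0.667). T cells of the same libraries, which can answer interferon themselves, passed the score in 76.7%, 10.2%, 67.5%, 70.7%, 72.0%, 22.7% and 94.9% of cells, in the same library order. With the rule on thinned counts the share of microglia in this state was 20.7% in IgG 1 and 2.19% in IgG 2. It was then 69.1% in BP 1, 19.7% in BP 2, 43.7% in BPI, 5.73% in CD40 and 92.3% in UT. With at least 10 rule-gene UMIs it was 30.9% in IgG 1, 4.37% in IgG 2, 75.4% in BP 1 and 10.0% in BP 2. In BPI, CD40 and UT it was 37.5%, 5.81% and 96.5%. The free RNA share reached 25.7% for Ifi27l2a, 1 of the list's most abundant genes, and its part in the score was not tested.

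The cycling state held 17.4% to 33.1% of members in every library, with 33.1% in IgG 1, 18.9% in IgG 2, 28.5% in BP 1 and 21.9% in BP 2. With the rule on thinned counts these 4 shares were 17.2%, 8.39%, 13.2% and 10.3%, and the range over all libraries was 6.90% to 23.1%. BP (25.2% ± 4.63, SD, n = 2) and IgG (26.0% ± 10.0, n = 2) overlapped (two-sided exact permutation test, p = 1.0). Without IgG 1 the difference was 6.26 and without BP 2 it was 2.47, against -0.807 percentage points over all 4 libraries. Cycling members were deeper and scored higher for doublets. In IgG 2, 36.8% of them were among the cells with the highest doublet scores, against 2.11% of the rest, and they held 4.58 UMIs of tumour and glial markers per 10000 against 0.624. In CD40 the doublet shares were 42.4% and 2.88%. The tumour and glial markers are Sox2, Sox9, Ptprz1, Bcan, Cspg5, Fabp7, Nes, Egfr and Cdkn2a. Cdkn2a, the gene of Arf and Ink4a that the tumour line is said to lack, was the most abundant of them (mean 46.2 CPM). Whether tumour cells captured together with microglia contribute to this state was not tested. Homeostatic members made up 72.7% of the cycling cells in IgG 1, 80.6% in IgG 2, 80.0% in CD40, 66.7% in BPI, 58.8% in BP 2, 57.8% in BP 1 and 35.7% in UT. Among the other members the homeostatic share was higher in every library: 95.5%, 99.4%, 97.1%, 97.4%, 97.5%, 69.9% and 55.2% in the same order.

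**Figure D2:**
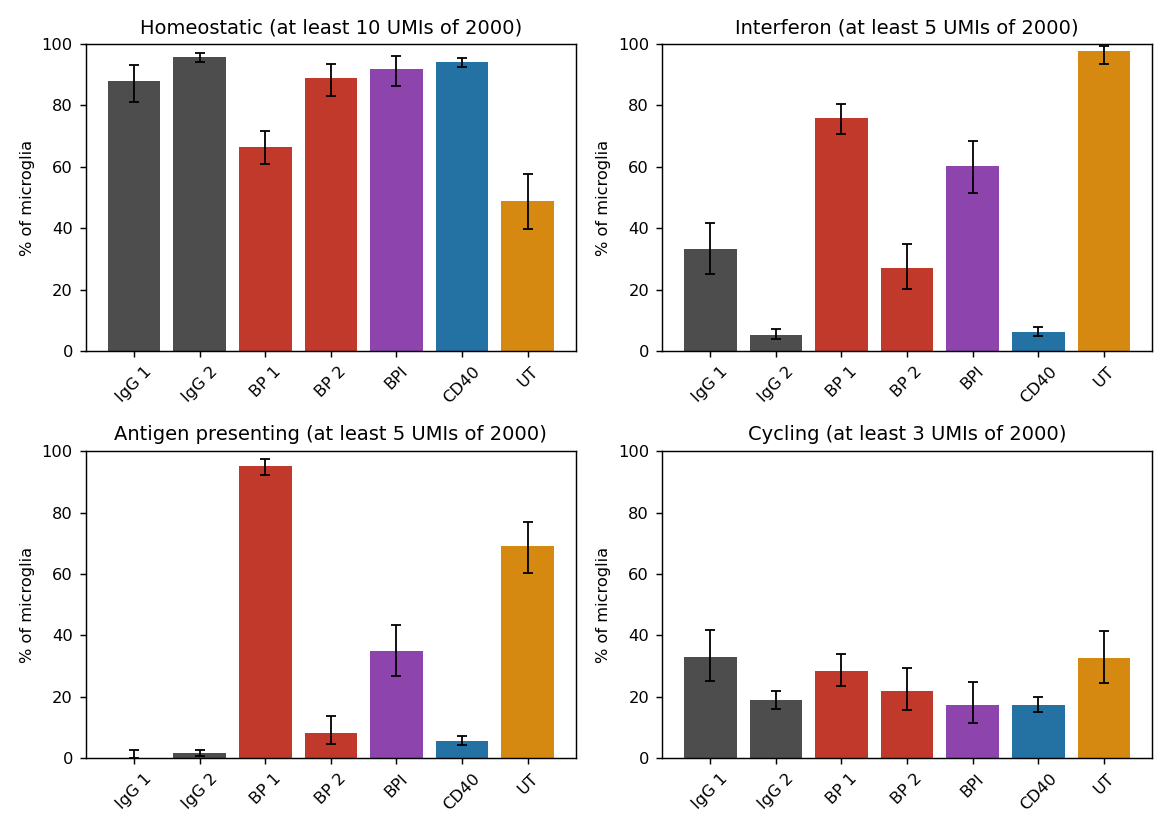
Percent of microglia in each of 4 states, by library, in cells thinned to 2000 UMIs, with exact 95% binomial intervals. The antigen-presenting state spans 0% (IgG 1) to 95.3% (BP 1), while the cycling state stays between 17.4% (BPI) and 33.1% (IgG 1).

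Cells in several states at once were common where MHC class II was high. Members that were both interferon and antigen-presenting made up 72.5% of the class in BP 1, 69.0% in UT, 27.5% in BPI and 6.45% in BP 2, and at most 0.929% in IgG and CD40. Members in the homeostatic state alone made up 76.6% in IgG 2, 72.8% in CD40, 60.0% in BP 2, 51.1% in IgG 1 and 32.6% in BPI. In BP 1 that share was 0% of 316 cells, and in UT it was 1.55%.

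The share of homeostatic members that were also antigen-presenting, a state whose genes the rule did not use, ranged widely. In BP 1 it was 98.6% of 210 homeostatic members, in UT 61.9% of 63, in BPI 34.6% of 127 and in BP 2 5.80% of 138. The 301 antigen-presenting members of BP 1 were nearly the whole class, and the 15 others held 10.4 UMIs of T and NK markers per 10000 against 0.185. In UT the 89 antigen-presenting members held monocyte and macrophage markers at 50.4 per 10000, and the 40 others at 12.3.

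In BP 2 few cells carried MHC class II. Of its 13 antigen-presenting members, 8 were homeostatic (61.5%, against 91.5% of the other 142). The 13 held monocyte and macrophage markers at 18.1 per 10000 against 3.25. In BPI the 48 antigen-presenting members held them at 17.8 per 10000 against 5.06 in the other 90, and 91.7% of the 48 were homeostatic. The part of these markers in the antigen-presenting state was not tested.

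**Figure D3:**
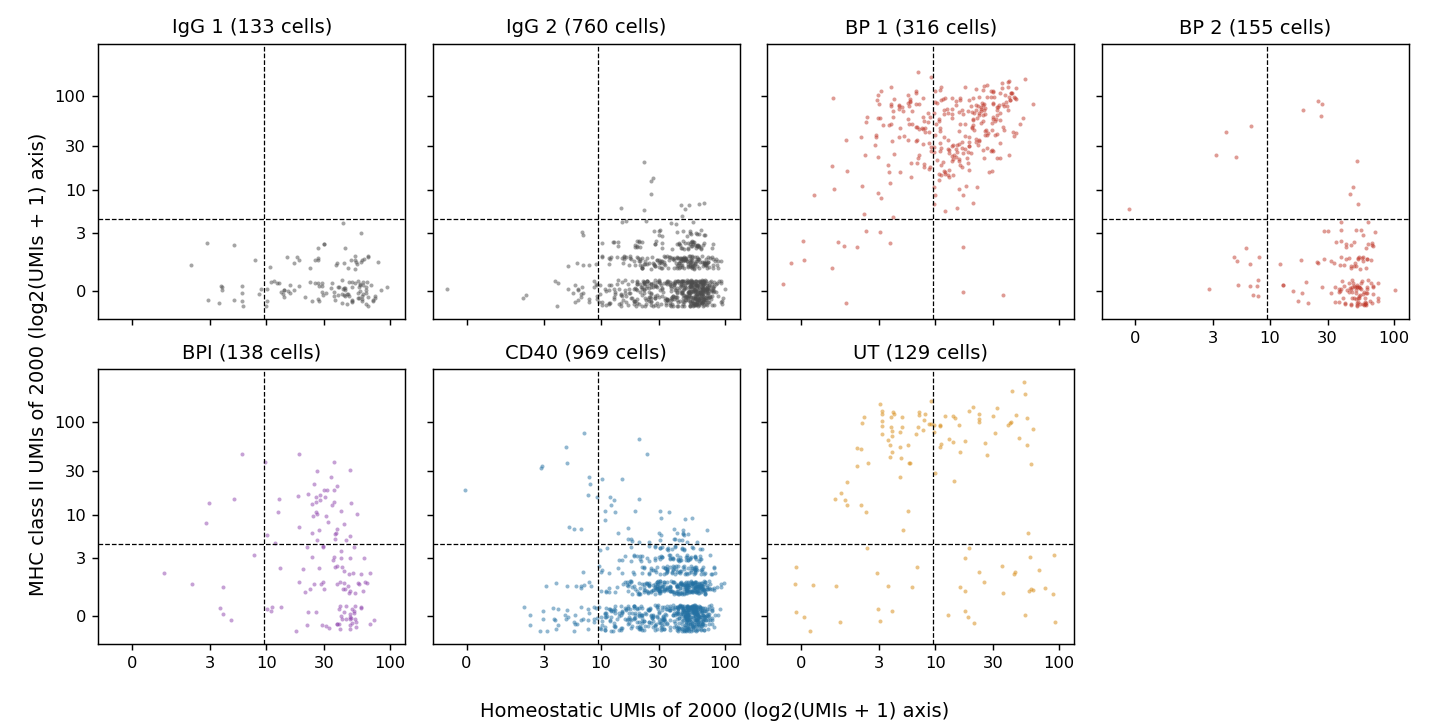
Each point is 1 microglial cell thinned to 2000 UMIs, by library. Its homeostatic UMIs are on the horizontal axis and its MHC class II UMIs on the vertical axis. Both axes are log2(UMIs + 1), with a small random shift of each point. Dashed lines mark the state thresholds of 10 and 5 UMIs. BP 1 fills the upper part of its panel, UT splits into an upper and a lower cloud, and IgG 1 has no cell above the horizontal line.

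MHC class II genes, which define the antigen-presenting state, are described first. All following gene levels are CPM of the UMIs summed over a library's microglia. The 7 genes together held 1.52 UMIs per 10000 in IgG 1 and 2.98 in IgG 2, against 214 in BP 1, 22.8 in BP 2, 31.0 in BPI, 9.82 in CD40 and 235 in UT. Every library other than IgG lay above both IgG libraries. Within the library sets, BP 2 stood 15.0-fold and BPI 20.4-fold above IgG 1, and CD40 3.30-fold above IgG 2. These ratios are of sums over the class, and the UMIs were unevenly spread. Among members deep enough to thin, the 13 antigen-presenting ones of BP 2 held 129 per 10000 and the other 142 held 2.57. In BPI the 48 antigen-presenting members held 74.2 and the other 90 held 6.13. In CD40 the 54 held 84.2 and the other 915 held 3.94.

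H2-Aa and H2-Ab1 encode the 2 chains of the peptide-binding molecule I-A. H2-Aa stood at 2.82 CPM in IgG 1, 10.6 in IgG 2, 3830 in BP 1, 368 in BP 2, 294 in BPI, 151 in CD40 and 4980 in UT. H2-Ab1 stood at 14.1, 30.1, 4990, 501, 542, 174 and 5020 CPM in the same order. Both genes were thus lowest in the IgG libraries and highest in BP 1 and UT. Cd74, the invariant chain that guides MHC class II to the endosome, stood at 46.1 and 126 CPM in IgG and at 11700, 1290, 1980, 482 and 12200 CPM in BP 1, BP 2, BPI, CD40 and UT. H2-DMa, a chain of the peptide exchanger, was less spread out, with 36.7 and 62.3 CPM in IgG, 57.0 in BP 2 and 436 in BP 1, so that BP and IgG overlapped. Ciita, the transactivator of all these genes, held 0 and 1.29 CPM in IgG, 163 in BP 1, 4.65 in BP 2, 28.8 in BPI, 3.43 in CD40 and 79.1 in UT.

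For BP against IgG, edgeR's quasi-likelihood test gave log2 fold changes of 8.03 ± 1.36 (SE) for H2-Aa, 6.87 ± 1.22 for H2-Ab1 and 6.20 ± 1.20 for Cd74, each with a Benjamini-Hochberg adjusted p of 1. None of the 7 genes passed that test. All 7 had positive fold changes, with a median log2 value of 6.20 against 0 over all 14277 genes, and 5 of the 7 lay above both IgG libraries in both BP libraries, where 15.1% of all tested genes did so.

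The promoters of 2 of these genes are shown because they hold the Y box, a motif bound by NF-Y beside the site through which Ciita acts. They are the 250 bases before the transcription start in RefSeq (GRCm38.p6), 5′ to 3′ on the gene's strand, with the letters CTGATTGG in capitals. The H2-Aa window is chr17:34287824-34288073 on the minus strand, with the motif 51 bases before the start, and the H2-Eb1 window is chr17:34305617-34305866 on the plus strand, with the motif 62 bases before the start.
H2-Aa: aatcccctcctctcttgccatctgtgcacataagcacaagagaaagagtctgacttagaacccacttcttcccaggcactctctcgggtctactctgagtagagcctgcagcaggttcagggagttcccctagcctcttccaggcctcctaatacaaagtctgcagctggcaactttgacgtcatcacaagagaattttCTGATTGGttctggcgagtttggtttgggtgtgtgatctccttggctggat
H2-Eb1: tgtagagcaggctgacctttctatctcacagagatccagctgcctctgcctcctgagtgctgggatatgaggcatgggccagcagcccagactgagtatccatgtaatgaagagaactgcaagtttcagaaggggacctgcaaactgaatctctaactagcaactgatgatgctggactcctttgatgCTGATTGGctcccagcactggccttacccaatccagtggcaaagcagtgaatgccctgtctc
Searched on both strands in windows from 250 bases before to 50 after the start, the motif was in 2 of 6 MHC class II promoters (5 of the 7 genes matched), in 7 of 15 MHC class I promoters and in 4.10% of all 32851 promoters. H2-Eb1, the beta chain of I-E, stood at 0 and 0.0992 CPM in IgG, 83.6 in BP 1, 6.98 in BP 2, 13 in BPI, 4.40 in CD40 and 79.5 in UT. Free RNA accounted for as much as 65.8% of H2-Eb1 in 1 library, more than for H2-Aa (9.84%). A match of letters is not evidence that a factor bound there.

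Interferon-gamma-type genes followed a similar order of libraries. The 14 genes, among them guanylate-binding proteins and immunity-related GTPases that attack intracellular pathogens, summed to 2.31 UMIs per 10000 in IgG 1, 2.00 in IgG 2, 31.9 in BP 1, 6.51 in BP 2, 26.9 in BPI, 2.16 in CD40 and 35.2 in UT. CD40 lay between the IgG libraries, and the other 4 above them. Within its set BP 2 stood 2.82-fold and BPI 11.6-fold above IgG 1, and BPI stood 4.13-fold above BP 2.

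Cxcl9, the chemokine that draws Cxcr3-bearing T cells, stood at 2.82 CPM in IgG 1, 0.397 in IgG 2, 320 in BP 1, 44.2 in BP 2, 258 in BPI, 11.8 in CD40 and 881 in UT. Gbp2, a guanylate-binding protein, stood at 8.47, 9.82, 450, 25.6, 258, 9.54 and 334 CPM. Iigp1, an immunity-related GTPase, stood at 48.9, 13.9, 846, 177, 930, 16.7 and 699 CPM. Each of these was higher in both BP libraries, BPI and UT than in either IgG library, and in BP 2 it was well below BP 1. Irf1, a transcription factor induced early by interferon gamma, varied less, with 41.4 and 61.7 CPM in IgG, 198 in BP 1, 155 in BP 2, 208 in BPI, 64.0 in CD40 and 231 in UT.

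All 14 genes had positive fold changes for BP, with a median log2 value of 2.82, and 11 of 14 lay above both IgG libraries in both BP libraries, where 15.1% of all tested genes did so. None passed the adjusted test. The log2 fold change of BP over IgG was 7.92 ± 1.37 (SE) for Cxcl9 and 1.74 ± 0.31 for Irf1, each with an adjusted p of 1 by edgeR with Benjamini-Hochberg adjustment.

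The promoters of Gbp2 and Irf1 are shown with the motifs through which interferons act. In Gbp2 the capitals mark the interferon-stimulated response element (GAAA, any 2 bases, GAAA), present on the other strand 59 bases before the start in chr3:142620413-142620662 (plus strand). In Irf1 they mark the gamma-activated site TTCNNNGAA, 90 bases before the start in chr11:53769764-53770013 (plus strand). No gamma-activated site was in the windows of Cxcl9 and Gbp2, nor in that of another Irf1 start (chr11:53770223-53770472). The response element was absent from the window of Acod1, a gene described below.
Gbp2: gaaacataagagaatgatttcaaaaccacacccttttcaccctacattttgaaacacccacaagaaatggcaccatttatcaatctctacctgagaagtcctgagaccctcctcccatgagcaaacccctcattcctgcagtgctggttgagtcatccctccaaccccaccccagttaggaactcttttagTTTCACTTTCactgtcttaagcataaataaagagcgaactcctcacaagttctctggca
Irf1: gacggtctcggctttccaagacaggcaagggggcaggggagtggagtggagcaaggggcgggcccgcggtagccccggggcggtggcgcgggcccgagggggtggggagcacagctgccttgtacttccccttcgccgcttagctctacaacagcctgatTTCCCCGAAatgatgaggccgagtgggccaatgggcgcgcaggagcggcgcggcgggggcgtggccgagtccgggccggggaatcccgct
The response element was in 8 of 12 promoters of interferon-gamma-type genes (10 of 14 genes matched), in 9 of 16 of the interferon list (15 genes matched), in 4 of 15 of the MHC class I list, in 0 of 20 of the homeostatic list and in 3.44% of all promoters. The gamma-activated site was in 5 of 12 interferon-gamma-type promoters, 4 of 16 interferon promoters and 8.30% of all. Its pattern reads the same on both strands, and neither of these motifs overlaps the Y box in the windows printed.

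Interferon genes of the antiviral kind did not follow the same order. The list summed to 30.1 UMIs per 10000 in IgG 1, 9.60 in IgG 2, 49.7 in BP 1, 28.7 in BP 2, 74.8 in BPI, 8.13 in CD40 and 132 in UT, so the IgG libraries themselves differed 3.14-fold. BP 2 stood at 0.953 of IgG 1, its set partner, and CD40 at 0.847 of IgG 2. Isg15, a ubiquitin-like modifier, stood at 209 CPM in IgG 1, 91.3 in IgG 2, 298 in BP 1, 216 in BP 2, 767 in BPI, 44.7 in CD40 and 1160 in UT. Ifitm3, which blocks viral entry, stood at 872, 173, 1020, 896, 1640, 164 and 2950 CPM. Cxcl10 was highest in BPI (1430 CPM) and UT (1060) and stood at 137 to 377 in the other 5. BPI and UT thus led on each of these 3 genes, and CD40 was lowest.

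For BP, 20 of the 21 interferon genes tested had positive fold changes (median log2 value 1.22), and 11 lay above both IgG libraries in both BP libraries, where 15.1% of all tested genes did so. None passed the adjusted test. The Isg15 promoter is shown because 3 overlapping response elements lie in it, the first 78 bases before the start, in chr4:156200819-156201068 on the minus strand. The capitals mark the stretch they cover.
Isg15: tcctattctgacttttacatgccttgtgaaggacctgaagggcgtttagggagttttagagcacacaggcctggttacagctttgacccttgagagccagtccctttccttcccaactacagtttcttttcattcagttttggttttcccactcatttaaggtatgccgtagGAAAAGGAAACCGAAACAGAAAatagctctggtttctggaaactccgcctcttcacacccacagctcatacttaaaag

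MHC class I genes, which show peptides to CD8 T cells, were present at high levels in every library. The 16 genes of presentation and peptide loading summed to 36.8 and 34.6 UMIs per 10000 in IgG, 155 in BP 1, 57.2 in BP 2, 108 in BPI, 55.4 in CD40 and 259 in UT. H2-K1 stood at 584 and 535 CPM in IgG, 3100 in BP 1, 1000 in BP 2, 2070 in BPI, 950 in CD40 and 3790 in UT. B2m, the shared light chain, stood at 1370, 1410, 4420, 1740, 3110, 2130 and 9760 CPM in the order IgG 1, IgG 2, BP 1, BP 2, BPI, CD40 and UT. The IgG libraries agree closely on both genes, and every other library is higher. All 16 genes lay above both IgG libraries in both BP libraries, against 15.1% of all genes, with a median log2 fold change of 1.65, and none passed the adjusted test.

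Homeostatic genes were lower in BP 1 and UT and close to IgG elsewhere. The 20 genes summed to 121 UMIs per 10000 in IgG 1, 156 in IgG 2, 64.5 in BP 1, 146 in BP 2, 142 in BPI, 147 in CD40 and 54.0 in UT. Cx3cr1, the fractalkine receptor, stood at 1720 and 2140 CPM in IgG, 741 in BP 1, 1950 in BP 2, 1720 in BPI, 2020 in CD40 and 471 in UT. Gpr34, a lysophospholipid receptor, stood at 633, 694, 58.7, 735, 511, 571 and 97.7 CPM in the usual order. For BP against IgG the median log2 fold change was -0.47, and 4 of the 20 genes lay below both IgG libraries in both BP libraries, where 14.4% of all tested genes did so. Another 2 of the 20 lay above both IgG libraries in both BP libraries, where 15.1% of all tested genes did so. In BP 2 alone, 6 of the 20 lay above both IgG libraries and 4 below.

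Genes of disease-associated microglia, a lipid-handling state seen near plaques and lesions, were spread unevenly over the libraries. The 19 measured genes summed to 218 UMIs per 10000 in IgG 1, 349 in IgG 2, 216 in BP 1, 142 in BP 2, 169 in BPI, 370 in CD40 and 316 in UT. For BP, 5 of the 19 lay below both IgG libraries in both BP libraries, where 14.4% of all tested genes did so, and for BPI it was 13 of 19, where 48.4% did so. None passed the adjusted test. Apoe, a lipid carrier, stood at 11800 CPM in IgG 2 and 13800 in CD40 but at 4520 in IgG 1, 2880 in BP 2, 3810 in BPI, 5740 in BP 1 and 6420 in UT. Spp1, the secreted phosphoprotein osteopontin, stood at 2460 and 2880 CPM in IgG 2 and CD40 and at 229 to 1080 in the other 5 libraries. Lpl, lipoprotein lipase, was lower in both BP libraries than in either IgG library, with 88.5 and 172 CPM in IgG, 25.6 in BP 1, 29.1 in BP 2, 37.5 in BPI, 126 in CD40 and 25.1 in UT. The log2 fold change of Lpl in BP was -2.30 ± 0.40 (SE; adjusted p = 1 by edgeR).

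**Figure D4:**
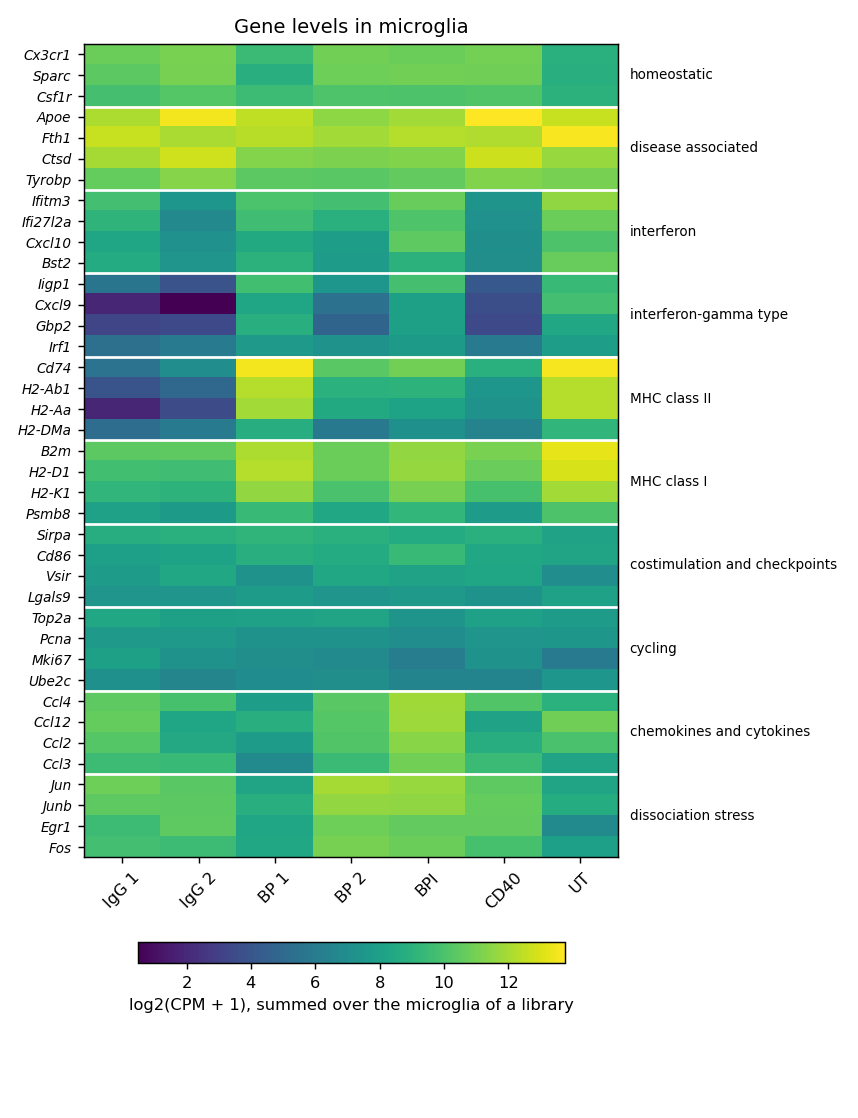
Levels of the named genes in microglia as log2(CPM + 1), genes in lines grouped by list and libraries in columns. MHC class II genes are brightest in BP 1 and UT, interferon-gamma-type genes are brighter in BP 1, BPI and UT than in IgG 1, IgG 2 and CD40, and homeostatic genes are lower in BP 1 and UT than in the other 5 libraries.

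Across all genes, microglia of BP and IgG could not be separated by the adjusted test. edgeR's quasi-likelihood test called 0 of 14277 genes (0%) at a Benjamini-Hochberg adjusted p under 0.05, with 669 at an unadjusted p under 0.05, and DESeq2 called 45. The gene with the smallest p was Acod1, the enzyme that makes itaconate in activated macrophages. Acod1 stood at 5.65 CPM in IgG 1, 4.37 in IgG 2, 44.2 in BP 1, 50.0 in BP 2, 107 in BPI, 11.4 in CD40 and 236 in UT, so that the BP values lay close together and above IgG. Its log2 fold change in BP was 3.29 ± 0.33 (SE; adjusted p = 0.758). With UT counted among the controls beside IgG, the log2 fold change of Acod1 was -1.01 and that of Cxcl9 was -0.89.

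Lyzl4, a lysozyme-like gene, had the smallest p on the low side among genes within the limits on level, free RNA and overlap set for named genes. It stood at 55.5 and 75.7 CPM in IgG, 6.10 in BP 1, 15.1 in BP 2, 7.21 in BPI, 52.1 in CD40 and 2.28 in UT (log2 fold change in BP -2.88 ± 0.50, SE; adjusted p = 1 by edgeR). Gas6, a ligand of the Axl and Mertk receptors that clear dead cells, stood at 124 and 69.0 CPM in IgG and at 31.4 and 32.6 in BP. Ch25h, which makes 25-hydroxycholesterol, stood at 213 and 189 CPM in IgG, 42.0 and 79.1 in BP, and higher in BPI (371) and UT (348). The antisense transcript 4930557K07Rik stood at 87.5 and 133 CPM in IgG and at 15.4 and 33.7 in BP, and these counts are uncertain where an overlapping gene shares the reads. None of these passed the test.

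The 2 BP libraries differed from each other more than the 2 IgG libraries did. The SD of log2 differences over genes was 1.07 between BP 1 and BP 2 and 0.75 between the IgG libraries. Leaving out BP 2 raised the number of called genes to 809, leaving out BP 1 gave 2, and leaving out either IgG library gave 0.

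BPI, in which a PI3K inhibitor was added, was compared with the same IgG libraries, so its values are not independent of those for BP. edgeR called 0 of 14277 genes (0%), with 575 at an unadjusted p under 0.05, and DESeq2 called 23. The single library was assumed to vary as the replicated groups did. Acod1 came closest, with a log2 fold change of 4.65 ± 0.37 (SE; adjusted p = 0.198 by edgeR). The median log2 fold change was 4.66 over MHC class II genes, 3.64 over interferon-gamma-type genes, 2.42 over interferon genes and 1.83 over MHC class I genes, against -0.08 over all genes. In BPI, 20 of 21 interferon genes, 14 of 14 interferon-gamma-type genes and 7 of 7 MHC class II genes lay above both IgG libraries, where 24.9% of all tested genes did so. So did the 4 T and NK markers tested, 6 of 8 monocyte and macrophage markers (median log2 fold change 1.86) and 13 of 14 dissociation-stress genes (1.26). The whole T and NK list summed to 0.187 UMIs per 10000 in BPI against 0.00941 in IgG 1 and 0.0169 in IgG 2. The part of these genes in the result was not tested.

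Cd86, which costimulates T cells through CD28, stood at 251 and 287 CPM in IgG, 452 in BP 1, 394 in BP 2, 721 in BPI, 337 in CD40 and 302 in UT. It was highest in BPI (log2 fold change 1.58 ± 0.31, SE; adjusted p = 0.994 by edgeR). Ifi209, an interferon-inducible gene, stood at 18.8 and 11.9 CPM in IgG, 90.9 in BPI and 183 in UT, and Nr4a3, an immediate-early nuclear receptor, at 42.4 and 32.8 in IgG and 107 in BPI. On the low side, Lyzl4 was at 7.21 CPM and Lpl at 37.5. Arl11 stood at 31.1 and 47.2 CPM in IgG and 11.5 in BPI, the lysosomal lipase Lipa at 146 and 121 against 56.2, and the secretory kinase Fam20c at 137 and 146 against 46.2. None of these passed the test. With the microglia rule applied to thinned cells, the fold change of Fam20c changed sign (0.36).

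Most proliferation genes were below both IgG libraries in BPI and in CD40. Of 23 cycling genes, 22 lay below both IgG libraries in BPI, where 48.4% of all tested genes did so, with a median log2 fold change of -0.49. In CD40 it was 18 of 23, where 26.8% of all tested genes did so, with a median of -0.43. None passed the adjusted test in either. Within the sets, the summed cycling genes of BPI stood at 0.481 of IgG 1, those of BP 2 at 0.717 of IgG 1 and those of CD40 at 0.934 of IgG 2. Mki67, a marker of dividing cells, stood at 264 CPM in IgG 1, 154 in IgG 2, 131 in BP 1, 114 in BP 2, 64.9 in BPI, 150 in CD40 and 58.2 in UT. Tumour and glial markers were also lowest in BPI, at 0.894 UMIs per 10000 against 1.98 to 2.64 elsewhere, and their part in the cycling genes was not tested. Without BP 2 the number of genes called for BPI was 125 and without BP 1 it was 35.

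CD40 shares its library set with IgG 2, and these 2 libraries were the most alike of all 21 pairs, with an SD of log2 differences of 0.36. They also held the most microglial UMIs, 13418550 in CD40 and 10078689 in IgG 2. Counting noise is smaller at such depth, and its part in this SD was not tested. Against both IgG libraries edgeR called 0 of 14277 genes (0%), with 88 at an unadjusted p under 0.05, and DESeq2 called 0. MHC class II genes were higher in CD40 than in IgG. All 7 lay above both IgG libraries, where 37.0% of all tested genes did so, with a median log2 fold change of 2.43 against 0.01 over all genes. H2-Aa at 151 CPM stood above 2.82 and 10.6 in IgG (log2 fold change 4.22 ± 1.25, SE; adjusted p = 1 by edgeR). None of the 7 passed the test. The 4 endothelial markers and the 4 T and NK markers that were tested also lay above both IgG libraries. Over the whole lists, endothelial markers summed to 0.942 UMIs per 10000 in CD40 against 0.405 in IgG 2, and T and NK markers to 0.0522 against 0.0169, and their part in the MHC class II values was not tested.

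Interferon genes were low in CD40. None of 21 had a positive fold change, and 16 lay below both IgG libraries, where 26.8% of all tested genes did so. Their median log2 fold change was -1.21, but their sum was 8.13 UMIs per 10000 against 9.60 in IgG 2 of the same set and 30.1 in IgG 1. The receptor Cd40, the target of the antibody, stood at 3.95 CPM in CD40 and at 3.76 and 2.78 in IgG. Gas6 (52.2 CPM), the scavenger receptors Stab1 (51.6) and Msr1 (120), the ferritin light chain Ftl1 (2360) and Slfn5 (14.9) were below both IgG libraries, and Apoc2 (74.0), a lipoprotein cofactor, above both. None of these passed the test. Without BP 2 the count was 5 genes.

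UT was compared with IgG in a fit over all 7 libraries. edgeR called 2 of 13264 genes (0.0151%), with 2040 at an unadjusted p under 0.05, and DESeq2 called 287. Acod1 rose, with a log2 fold change of 5.83 ± 0.35 (SE; adjusted p = 0.0233 by edgeR). Xist fell. It had 0 UMIs in UT and a mean of 716 CPM in IgG, at least 628-fold lower when UT is set to a floor of 3 counts (1.14 CPM; adjusted p = 0.0233). Xist is made only from the inactive X of female cells, and UT also held the most Ddx3y (42.6 CPM) of all libraries. Sex, library set, any difference in barcoding and the absence of treatment cannot be told apart in this comparison.

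Cd72, a receptor of B cells and activated microglia, stood at 15.1 and 11.6 CPM in IgG and 259 in UT (log2 fold change 4.52 ± 0.35, SE; adjusted p = 0.0726 by edgeR). Ass1, which makes argininosuccinate for arginine synthesis, stood at 32.0 and 36.6 CPM in IgG and 620 in UT, and it was between 26.8 and 50.7 in the other 4 libraries. Ms4a4c, an interferon-inducible membrane gene, stood at 45.2 and 13.3 CPM in IgG and 646 in UT. On the low side, the endosomal exchanger Slc9a9 stood at 256 and 227 CPM in IgG and 36.5 in UT, the peroxisomal transporter Abcd2 at 59.3 and 78.2 against 5.70, and the calcium channel Cacna1a at 276 and 283 against 74.5. Tsix, which overlaps Xist on the opposite strand, had 0 UMIs in UT. None of these passed the test.

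In UT all 21 interferon genes and all 7 MHC class II genes lay above both IgG libraries, where 32.8% of all tested genes did so, with median log2 fold changes of 3.44 and 7.32 against -0.02 over all genes. All 20 homeostatic genes lay below both, where 47.2% of all tested genes did so, with a median of -1.66. The 8 monocyte and macrophage markers all lay above both, with a median of 4.37. Without IgG 1 or without IgG 2 neither of the 2 genes was called, without BP 1 the count was 812 and without BP 2 it was 1342. With thinned cells the count was 0.

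The genes that the drugs act on were read in every library. Cd274, which encodes PD-L1, stood at 16.0 and 16.4 CPM in IgG, 211 in BP 1, 24.4 in BP 2, 138 in BPI, 24.0 in CD40 and 157 in UT (log2 fold change in BP 2.89 ± 0.90, SE; adjusted p = 1 by edgeR). The IgG libraries were nearly equal, and every other library lay above them. Cd40 stood at 48.0 and 11.6 CPM in BP 1 and BP 2, 47.6 in BPI and 110 in UT, against 3.76 and 2.78 in IgG. The PI3K genes moved less. Pik3cd, the delta catalytic subunit, stood between 40.3 (UT) and 97.9 CPM (BP 1), and Pik3cg, the gamma subunit, between 24.7 (UT) and 97.5 (IgG 2). Pdcd1, which encodes PD-1, was low, with 25.4 and 37.4 CPM in IgG and 4.65 and 15.1 in BP.

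Of the VEGF receptors, Flt1 stood at 175 CPM in BP 1, 42.1 in CD40, 29.3 in UT and 7.21 to 19.7 in the other 4 libraries, and Kdr at 4.17 to 10.6 in all 7. Endothelial markers, which include Flt1, summed to 2.48 UMIs per 10000 in BP 1 and to at most 0.942 elsewhere, and their part in the Flt1 value was not tested. Vegfa stood at 1.44 to 22.4 CPM, and free RNA could account for all of it in 1 library. Cd40lg was at most 1.16 CPM.

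The class was set beside C1q macrophages of the same libraries, which passed the same filters with 0 UMIs of P2ry12, Tmem119 and Sall1. The rule itself chose both classes, so the differences are a description. An adjusted p under 0.05 was reached by 2697 of 9238 genes (29.2%), a count that the choice of the classes partly fixes and that supports nothing here. All 19 homeostatic genes that could be compared were higher in microglia in every library, where 11.1% of all tested genes were, with a median log2 difference of 2.60 against -0.03 over all genes. Csmd3, a large transmembrane protein, stood at 1200, 1590, 152, 2050, 1230, 1410 and 67.7 CPM in microglia (IgG 1, IgG 2, BP 1, BP 2, BPI, CD40, UT) and at 0 to 62.8 in macrophages. The lens crystallin gene Crybb1 stood at 25.1 to 128 CPM in microglia and at most 5.97 in macrophages. Gm10790, A830008E24Rik, the lipid flippase Atp8a2, the chemokine receptor Ccr6, the organic anion transporter Slco2b1, Rtn4rl1 and the protease Capn3 differed by 4.69 to 6.19 on the log2 scale. Cxcl13, a B-cell attractant, stood at 265 CPM in the microglia of UT and at 11.2 to 63.2 in those of the other 6 libraries.

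MHC class II was present in the macrophages too. It summed to 140 UMIs per 10000 in the macrophages of BP 1, 117 in BP 2, 135 in BPI, 34.4 in CD40, 84.0 in UT and 2.93 and 6.91 in IgG. In BP 1 and UT microglia (214 and 235) held more than the macrophages, while in BP 2 and BPI they held less (22.8 against 117 and 31.0 against 135). The state shares showed the same crossing, with 95.3% antigen-presenting microglia against 73.0% of macrophages in BP 1, 69.0% against 40.2% in UT, 8.39% against 65.9% in BP 2 and 34.8% against 81.2% in BPI. In UT the cells called microglia also held more monocyte and macrophage markers than its macrophages (37.5 against 28.5 per 10000). In every other library the macrophages held more of these markers, with 51.4 against 23.2 in BP 1. The part of such cells or transcripts in the MHC class II values was not tested.

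**Figure D5:**
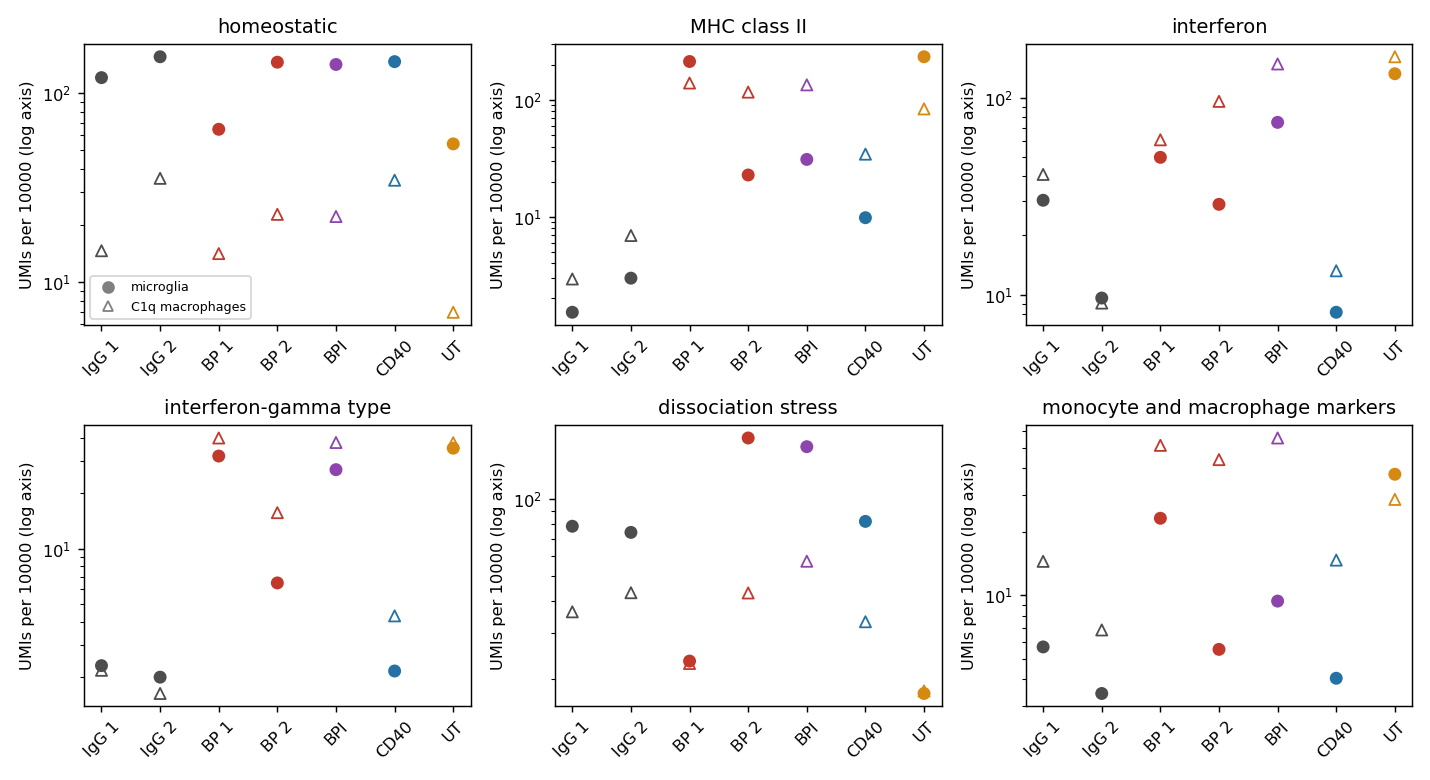
Summed levels of 6 gene lists in UMIs per 10000 (log axis) in microglia (filled circles) and C1q macrophages (open triangles) of each library. Homeostatic genes are higher in microglia in all 7 libraries, and MHC class II is higher in microglia in BP 1 and UT and higher in macrophages in the other 5.

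A test of the difference itself, the BP against IgG change in microglia minus that in C1q macrophages with library as a block, called 0 of 11543 genes (0%) by edgeR at an adjusted p under 0.05, with 346 at an unadjusted p under 0.05. DESeq2 called 0 as well. The median log2 difference was -0.95 over interferon genes, -0.61 over interferon-gamma-type genes, -0.46 over MHC class I genes and -0.11 over MHC class II genes, against -0.05 over all genes. The cadherin Fat3 stood at 28.3 and 123 CPM in BP microglia and 1.06 and 5.87 in BP macrophages, against 101 and 153 and 26.9 and 37.7 in IgG (log2 difference 2.74 ± 0.54, SE; adjusted p = 0.893 by edgeR). The semaphorin receptor Plxna4 and Rasgrp3 also had positive differences, as did Crybb1. The chemokine receptor Ccr1, the receptors Pilra and Il10ra, and the integrin Itga9 had negative ones. None passed the test. Without BP 1 the count was 375, without BP 2 it was 101 and without IgG 2 it was 3.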

How the data were processed

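Single-cell 3′ RNA counts of 7 libraries were used, as deposited by the authors: raw UMI counts per gene and barcode, with no normalization. The deposited matrices name Cell Ranger 4 per the file headers, while the submitters' processing notes list Cell Ranger 7.0.1 and the mm10 build; which version made them is not given in the sources used here. The microglia rule, the gene lists and the tests were chosen with earlier results of these data known. Doublets were not removed; scores from Scrublet (scanpy 1.11.5) marked the top 0.8% of cells per 1000 cells, and leaving those out was an alternative.

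UMIs were summed over the members of each library, which is the replicate, and tested with edgeR 4.0.16 (quasi-likelihood, TMM, filterByExpr, Benjamini-Hochberg at 0.05); DESeq2 1.42.0 was an alternative. BP, BPI and CD40 were fitted with IgG in 1 fit, UT in a fit of all 7 libraries, and the class comparison with library as a block. Genes of the rule were left out of the calls. Shares were tested by exact permutation over libraries, with exact (Clopper-Pearson) 95% intervals. For states, cells were thinned to 2000 UMIs. The free RNA share was estimated from barcodes with 10 to 100 UMIs, as the 2nd percentile over 500 genes of the level in cells relative to that profile.

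Named genes were, per comparison, at most 10 in each direction among those that passed, with average log2 CPM of at least 5, free RNA under 10% and groups that do not overlap, filled to 5 by unadjusted p; of each list, the 4 most abundant members; and all drug targets. The genes Clec7a and Mx1 were not analysed here, and a few genes that the naming rule chose are not reported here. For C1q macrophages no gene on the low side met the limit on free RNA. The gene scripts were tested on simulated counts in which 200 genes were changed 4-fold. For BP against IgG 71% of these were called, with 32 false calls. Between the classes it was 100% with 13 false calls, and for the difference between classes 48% with 13. A count of 0 called genes therefore does not mean that no gene differed. Deviations of same-numbered IgG and BP libraries from their group means were only weakly related (correlation -0.14). With 2 libraries a group this says little about pairing, and the numbers were not used to pair them. In all, 2 barcodes occurred as microglia in more than 1 library. The median depth of a member was 3020 to 17570 UMIs.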

Additional observations from a re-analysis of the deposited data

How the results depend on the processing

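The antigen-presenting, interferon and homeostatic differences between the BP and IgG means kept their direction under every alternative run, though not their size. With 2 libraries a group none could pass a test. The homeostatic difference was -1.21 percentage points with the rule on thinned counts (chosen after seeing the data), against -14.1 as reported. Leaving out 1 library at a time moved them between 7.60 and 94.5, between 7.92 and 56.8, and between -25.4 and -2.85 percentage points. In members with at least 10 rule-gene UMIs, homeostatic shares were 90.1% and 98.0% in BP against 91.2% and 97.1% in IgG. Antigen-presenting shares there were 97.2% in BP 1 and 0% in BP 2, against 0% in IgG 1 and 1.05% in IgG 2. The stricter rules select on genes of resting microglia, so for the homeostatic state they cannot decide whether BP and IgG differ. The microglia share moved between -6.71 and 0.637 (0.637 without IgG 2), and was -38.2 with C1q-positive cells as the denominator. With the rule on thinned counts the shares were 0.689% in BP 1 and 2.25% in BP 2, against 1.64% in IgG 1 and 7.10% in IgG 2. The cycling difference moved between -7.87 and 6.26 and was positive without IgG 1 (6.26), without BP 2 (2.47) and with a threshold 1 UMI lower (0.754).

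Counts of called genes depended on the tool, the filter on low counts and the library left out. DESeq2 called 45 genes for BP, 23 for BPI and 287 for UT. Without the filter on low counts, edgeR called 390 for BP, 202 for BPI, 32 for CD40, 1152 for UT and 45 for the difference between classes. With the rule on thinned counts it called 0 for UT, 4268 between microglia and macrophages and 3 for the difference between classes, and with homeostatic members alone 1 for UT (chosen after seeing the data). The replicate block gave 2 genes for BP, and a block with the numbers crossed (chosen after seeing the data) gave 0; the labels do not say that the numbers pair the libraries. Leaving out 1 library at a time gave 0 to 809 genes for BP, 0 to 125 for BPI, 0 to 5 for CD40, 0 to 1342 for UT, 1663 to 3188 between the classes, which the rule itself chose (1663 without CD40), and 0 to 375 for the difference between classes. A library alone in its group was assumed to vary like the others. The cause of these changes was not tested.

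Over 60 pairs of a named gene and a comparison, 669 alternatives were computed. Of these, 539 kept the direction and the side of the threshold, 113 passed where the reported value had not, 8 no longer passed and 9 changed direction. With UT counted among the controls, the log2 fold change was -1.01 for Acod1 and -0.89 for Cxcl9 in BP, -0.22 for Cxcl9 in BPI, and -3.07 for Acod1, -3.69 for H2-Aa, -4.87 for Cxcl9, -3.50 for H2-Ab1 and -0.05 for Apoc2 in CD40. With the rule on thinned counts it was 0.36 for Fam20c in BPI. Depth was lowest in BPI, whose microglia summed to 693360 UMIs, then in BP 2 (859712) and IgG 1 (1062498).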

Other observations

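Chemokines of the monocyte-recruiting kind followed another order than the interferon genes. Ccl2 stood at 1220 CPM in IgG 1, 363 in IgG 2, 225 in BP 1, 1130 in BP 2, 2710 in BPI, 428 in CD40 and 977 in UT. Ccl12, a close relative of Ccl2 in mice, stood at 1570, 326, 441, 1220, 3560, 282 and 1860 CPM in the same order. Ccl4, another chemokine, was likewise highest in BPI, at 3720 CPM, and lowest in BP 1 (241) and UT (490). In BPI 15 of the 20 chemokine and cytokine genes lay above both IgG libraries, where 24.9% of all tested genes did so, with a median log2 fold change of 1.32, and none passed the adjusted test. Ccl8, a further chemokine of this family, was nearly confined to 2 libraries: it stood at 2100 CPM in BP 1 and 518 in UT, and at 0 to 0.894 CPM in the other 5.

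Immediate-early genes, which tissue digestion can switch on, differed widely between libraries. The 14 genes summed to 78.4 UMIs per 10000 in IgG 1, 74.2 in IgG 2, 23.4 in BP 1, 173 in BP 2, 160 in BPI, 81.9 in CD40 and 17.5 in UT. Jun stood at 1800 and 1330 CPM in IgG, 304 in BP 1, 3980 in BP 2, 3370 in BPI, 1390 in CD40 and 295 in UT. BP 1 and UT were lowest in these genes and in homeostatic genes and highest in MHC class II. Across the cells of 1 library, the rank correlation of stress with homeostatic UMIs was between 0.26 (BP 2) and 0.60 (CD40), over 129 to 969 cells that share library and depth.

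Glycolysis genes were highest in UT, where the list summed to 58.2 UMIs per 10000 against 17.1 to 31.9 in the other 6 libraries. Gapdh stood at 2270 CPM in UT and 622 in BPI, where it was lowest. Mrc1, a mannose receptor of border-associated macrophages, stood at 254 CPM in the microglia of BP 1 and 45.2 in those of IgG 1, and at 0 to 12.3 in the other 5 libraries.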
